A study of Homo sapiens with 32 samples.

Results

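The expressed long non-coding RNAs (lncRNAs) of MCF10A cells, a spontaneously immortalised human mammary epithelial line, were examined in RNA-seq libraries of cell clones with an intact or an edited JUNB gene. Of the 17788 gene rows of the count table, 1358 carry the GENCODE gene type lncRNA, and 134 of these had, averaged over all 32 libraries, a level of 5 CPM or more (CPM, the gene's count divided by the library total and scaled to 1000000). These 134 rows are the members described here. They were chosen by their mean level over all groups, so that their abundance is a description. The WT clones 27 and 2 and the mut clones 1 and 65 were each grown from a single cell, and the mut clones carry an extended CRISPR/Cas9 deletion in JUNB. The labels call the mut clones knock-out. According to the study's results no full-length JUNB protein was detected in them, but a smaller, weakly expressed polypeptide was. Cells received solvent (0.1% bovine serum albumin in phosphate-buffered saline, time 0 in the labels, but 72 h of solvent and a common harvest in the study's methods) or TGFβ1 at 5 ng/ml for 6, 24 or 72 h. With 2 replications per clone this made 8 groups of 4 libraries. The libraries of 1 clone and 1 replication form a series, written as clone and replication (27-1).

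LncRNAs are transcripts without a long conserved reading frame. Several kinds occur among the members. Hosts of small nucleolar RNAs (snoRNAs, guides of ribosomal RNA modification) carry these RNAs in their introns, and the spliced remainder is mostly degraded on the ribosome. Hosts of microRNAs are processed by the nuclear microRNA machinery, divergent transcripts start next to a coding gene on the opposite strand, and other lncRNAs, such as NEAT1 or MALAT1, stay in the nucleus as structural RNAs. TGFβ1 drives an epithelial-mesenchymal transition (EMT) in MCF10A cells, and JUNB is a subunit of the transcription factor AP-1, which binds sites of the form TGANTCA.

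Library totals ranged from 39702412 to 54651906 counts, so that 3 counts, taken as the floor, correspond to 0.0549 to 0.0756 CPM. JUNB itself stood at 97.6 ± 12.9 CPM (SD, n = 4) in WT solvent and 112 ± 47.9 CPM in mut solvent, and its count therefore did not separate the genotypes. The basal epithelial keratin KRT5 lay between 3262 and 8158 CPM, whereas the leukocyte markers PTPRC and CD3E did not exceed 0.0498 CPM. Of the fibroblast collagens, COL1A1 lay between 3.16 and 73.4 CPM and COL1A2 did not exceed 0.364 CPM, and their part in the results was not tested. In bulk RNA, fewer cells of a type and less RNA per cell cannot be told apart. The library kit keeps no strand. Exons of 66 members overlap exons of another gene in the table, for 57 members on the opposite strand, and for 29 members the overlapping gene was the more abundant one, so that reads there cannot be assigned to either. Counts of 3 members were identical in every library to those of a coding gene, namely the lncRNA row of ELFN2 (ENSG00000243902) to ELFN2, ENSG00000271858 to CYB561D2 and ENSG00000226266 to BAZ2B. These 3 rows say nothing about a lncRNA of their own, which leaves 131 members with counts of their own. All counts of members below still include these 3 rows. At the edge of the threshold, LINC01133 (5.00 CPM), LINC01356 (5.04 CPM), EIF3J-DT (5.05 CPM) and MINCR (5.14 CPM) were just inside, and CAPN1-AS1 (4.99 CPM), LOXL1-AS1 (4.90 CPM), TRIM52-AS1 (4.88 CPM) and LINC01547 (4.84 CPM) just outside. For 5 members, namely LINC01356, LINC01133, EIF3J-DT, PAX8-AS1 and MINCR, the mean without the highest group was under 5 CPM, so that this group decided their membership. The values of 1 member are not given by name.

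The small RNAs that the host members carry are what these genes are best known for, and their mature sequences are therefore shown first (RefSeq, GRCh38.p14, 5′ to 3′, with the seed, bases 2 to 8, in capitals).
MIR22HG, hsa-miR-22-3p: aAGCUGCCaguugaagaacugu
MIR100HG, hsa-miR-100-5p: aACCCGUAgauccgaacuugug
MIR100HG, hsa-let-7a-5p: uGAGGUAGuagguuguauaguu
MIR100HG, hsa-miR-125b-5p: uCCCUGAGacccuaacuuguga
MIRLET7BHG, hsa-let-7b-5p: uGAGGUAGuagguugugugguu
MIR205HG, hsa-miR-205-5p: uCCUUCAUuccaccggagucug
MIR31HG, hsa-miR-31-5p: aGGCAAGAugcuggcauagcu
H19, hsa-miR-675-5p: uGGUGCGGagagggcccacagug
MIR4435-2HG, hsa-miR-4435: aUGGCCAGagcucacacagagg
The let-7 microRNAs of MIR100HG and MIRLET7BHG share the seed GAGGUAG, and the other seeds shown differ from each other. The mature miR-22 lies in an exon of MIR22HG (chr17:1713914-1713935, minus strand), whereas miR-100, let-7a and miR-125b lie in introns of MIR100HG. Mature microRNAs were not measured in these libraries, and the counts are those of the host transcripts.

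Transcripts of snoRNA hosts commonly start with a run of pyrimidines, a feature they share with messenger RNAs of ribosomal proteins. The 20 bases on each side of the annotated start are shown for a selection of hosts with and without such a run (RefSeq, GRCh38.p14, strand of the gene, with a run of at least 6 C or T that touches the 5 bases on either side of the start in capitals).
SNHG16 (chr17:76557744-76557783, plus strand): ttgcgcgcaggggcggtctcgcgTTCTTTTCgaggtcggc
SNHG19 (chr16:2155339-2155378, minus strand): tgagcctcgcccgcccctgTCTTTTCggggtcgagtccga
SNHG5 (chr6:85678714-85678753, minus strand): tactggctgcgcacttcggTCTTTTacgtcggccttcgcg
SNHG32 (chr6:31834896-31834935, plus strand): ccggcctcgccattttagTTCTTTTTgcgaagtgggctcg
SNHG29 (chr17:16438967-16439006, plus strand): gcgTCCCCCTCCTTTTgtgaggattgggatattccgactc
SNHG12 (chr1:28581854-28581893, minus strand): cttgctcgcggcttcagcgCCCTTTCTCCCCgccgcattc
DANCR (chr4:52712374-52712413, plus strand): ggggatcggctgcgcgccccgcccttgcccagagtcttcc
GAS5 (chr1:173869026-173869065, minus strand): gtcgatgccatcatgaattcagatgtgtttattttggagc
SNHG11 (chr20:38446634-38446673, plus strand): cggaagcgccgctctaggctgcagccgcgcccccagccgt
Such a run was found at 12 of 15 start sites of snoRNA host members (80.0%), at 20.4% of the 103 start sites of other members and at 22.2% of the 35116 start sites of all genes in the table of promoters. A run counted here need not lie in the transcript. Those of SNHG29 (13 bases from position -17) and SNHG7 (11 bases from position -14) ended before the annotated start. No start site was available for the host members SNHG6 and SNHG15. Among the hosts examined, DANCR, GAS5 and SNHG11 are the 3 without a run of this length at the annotated start. Which start sites the cells used was not tested, so that transcripts of these hosts may still begin with such a run. Promoter sequence was available for 93 members with 118 start sites.

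Levels differed widely between members. The mean over all libraries ranged from 5.00 to 680 CPM with a median of 12.2 CPM, 11 members reached 100 CPM and 54 stayed under 10 CPM. The 5 most abundant members, SNHG29, LINC02067, NORAD, MIR205HG and TAPT1-AS1, took 45.5% of all member counts. Per length, as CPM per kb of merged exons, the order was led by LINC02067 (212), TAPT1-AS1 (94.8), MIR205HG (93.5), NORAD (78.6), SNHG29 (76.0), SNHG32 (37.0), ENSG00000237250 (33.2) and IRX2-DT (24.5). LINC02067 (chr3:161426427-161448242) is an intergenic transcript 53547 bp from SPTSSB. NORAD binds PUMILIO proteins in the cytoplasm, MIR205HG hosts the epithelial miR-205, and TAPT1-AS1 (chr4:16226685-16320140) starts 725 bp from the start of TAPT1 on the opposite strand. Together the members took a small share of all counts, which in WT cells was 0.532 ± 0.035% (SD, n = 4) in solvent, 0.498 ± 0.034% after 6 h, 0.440 ± 0.011% after 24 h and 0.403 ± 0.014% at 72 h. In mut cells the shares were 0.574 ± 0.017%, 0.557 ± 0.022%, 0.526 ± 0.014% and 0.518 ± 0.042%. Thus the share of the WT libraries at 72 h, with a highest value of 0.418%, lay below every WT solvent library, the lowest of which was at 0.504%. By position, 56 members overlap exons of a coding gene, 15 are divergent transcripts whose start lies within 1000 bp of that of a coding gene, 8 overlap only the body of a coding gene, and 55 are intergenic.

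The first question was which lncRNAs respond to TGFβ1 in cells with intact JUNB. Most of the members that changed were downregulated, among them nearly all snoRNA hosts, IRX2-DT and VPS9D1-AS1, and a small group led by IGFL2-AS1 and MIR22HG was upregulated. At 72 h, 13 members were higher and 68 lower than in solvent (limma-voom, Benjamini-Hochberg adjusted p under 0.05), against 13.9% of all tested genes called higher and 38.4% called lower. The 13 include ENSG00000226266, which holds the counts of BAZ2B. At 24 h, 12 members were higher and 53 lower (all genes 14.1% and 38.0%), and at 6 h, 2 were higher and 11 lower (all genes 5.13% and 11.9%). The median log2 fold change of the members at 72 h was -0.34, beside -0.19 over all 14865 tested genes. All comparisons with solvent within a genotype share the same 4 solvent libraries. The scaling mattered for the downward calls. TMM factors, by contrast, set the median of all genes at 72 h to -0.03. Under them 6 members were higher and 9 lower at 6 h (all genes 7.01% and 6.18%), 17 and 31 at 24 h (23.5% and 23.2%), and 16 and 40 at 72 h (21.5% and 23.3%), with a members' median of -0.18 at the last time. With the series as a replicate block, 31 members were called at 6 h (all genes 25.9%). Over all times 95 members were called at least once. Both ZC3H12A-DT and MIR22HG were higher at all 3 times. The 8 members lower at all 3 times were SNHG12, SNHG16, GAS5, LINC00707, C10orf95-AS1, DLEU1, DHRS4-AS1 and VPS9D1-AS1. In all, 44 members, these 8 included, were lower at both 24 and 72 h, and no member was called in opposite directions at different times. The same counts over all genes are not given, and the 3 times share their solvent libraries. These counts over several times therefore only describe the members and show no trait particular to lncRNAs.

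**Figure D1:**
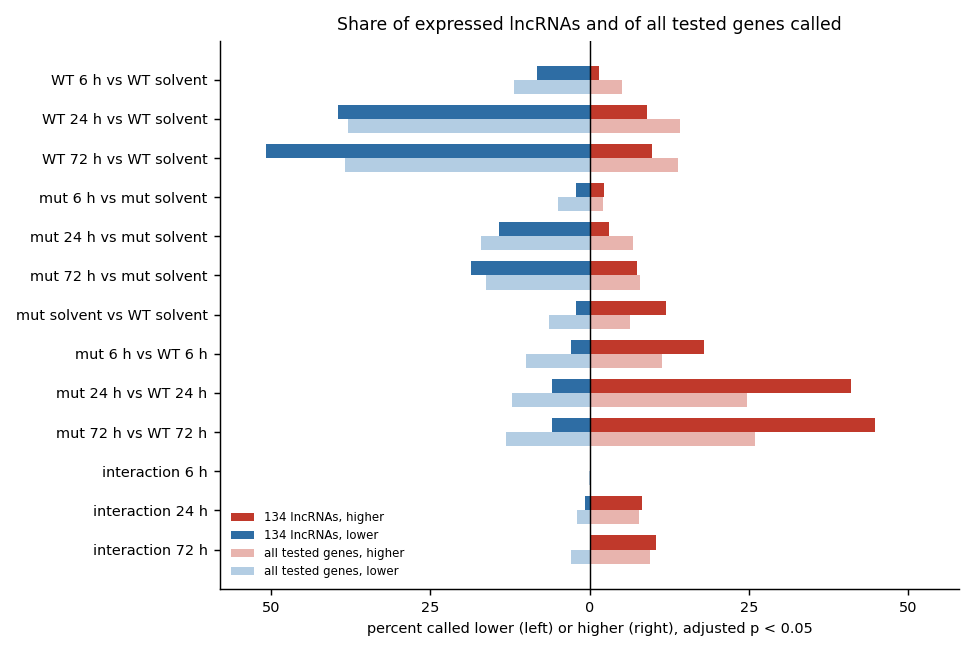
Percent of the 134 expressed lncRNAs (dark bars) and of the 14865 tested genes (light bars) called higher (right) or lower (left) in each comparison, with the WT change subtracted from the mut change for the interaction. After 72 h, 50.7% of the lncRNAs were called lower in WT cells, beside 38.4% of all genes, and 44.8% were called higher in mut than in WT cells, beside 26.0%.

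MIR22HG (chr17:1711447-1717174), the host of miR-22, rose at all 3 times. Its WT libraries stood at 20.0, 22.9, 24.4 and 24.0 CPM in solvent, in the order 27-1, 2-1, 27-2 and 2-2, which is kept for all WT values below. They reached 29.9, 38.9, 30.0 and 38.7 CPM at 6 h, 56.3, 51.4, 65.9 and 58.6 CPM at 24 h and 47.5, 50.1, 53.6 and 63.4 CPM at 72 h. Every treated library was above every solvent library. The log2 fold change, given with its standard error here and for all fitted changes, was 0.59 ± 0.13, adjusted p = 0.0028, at 6 h, 1.35 ± 0.13, adjusted p = 1.7e-09, at 24 h and 1.23 ± 0.13, adjusted p = 1.0e-08, at 72 h. IGFL2-AS1 (chr19:46189029-46203160), an antisense transcript in the IGFL gene cluster, showed the largest increase of all members at 72 h. Its WT values were 4.34, 3.49, 0.552 and 2.52 CPM in solvent and 9.01, 8.72, 5.08 and 10.3 CPM at 72 h (log2 fold change 1.82 ± 0.42, adjusted p = 6.3e-04). Groups did not overlap at 72 h, and the series 27-2 was lowest at both times. At 24 h IGFL2-AS1 was not called (0.63 ± 0.46, adjusted p = 0.27). ZC3H12A-DT (chr1:37350934-37474432), the divergent partner of the gene for the RNase Regnase-1, rose early. From 2.58, 2.97, 2.56 and 2.59 CPM in solvent it went to 4.72, 4.53, 5.27 and 5.23 CPM at 6 h and was at 4.07, 4.13, 4.09 and 3.91 CPM at 72 h. All treated libraries exceeded all solvent libraries, with log2 fold changes of 0.89 ± 0.20, adjusted p = 0.0027, at 6 h and 0.60 ± 0.21, adjusted p = 0.018, at 72 h. The call at 72 h was lost without the series 27-2 (0.57, adjusted p = 0.061). LINC01819, an intergenic transcript, rose from 17.3 ± 3.18 CPM (SD, n = 4) to 29.3 ± 2.97 CPM at 72 h (0.78 ± 0.16, adjusted p = 2.1e-04).

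At 72 h the largest called decrease was that of IRX2-DT (chr5:2752131-2755397), which starts 454 bp from IRX2, a homeobox gene. Its WT libraries were at 66.3, 67.0, 38.4 and 78.2 CPM in solvent, 25.8, 19.9, 19.3 and 22.1 CPM after 24 h and 16.7, 16.5, 15.9 and 16.2 CPM after 72 h. All 4 libraries at 72 h lay below the lowest solvent library, 27-2 (log2 fold change -1.89 ± 0.21, adjusted p = 1.6e-08). VPS9D1-AS1 (chr16:89711856-89718165), which shares exon sequence with VPS9D1 on the other strand, was at 18.1, 20.9, 15.8 and 22.7 CPM in solvent, 7.78, 7.77, 7.60 and 7.70 CPM after 24 h and 7.89, 9.14, 9.47 and 10.3 CPM after 72 h. The treated libraries were again all below those in solvent, with the lowest values at 24 h (-1.31 ± 0.13, adjusted p = 4.1e-09) rather than at 72 h (-1.07 ± 0.13, adjusted p = 7.7e-08). The coding gene VPS9D1 itself changed by 0.03 ± 0.09 on the log2 scale at 24 h (adjusted p = 0.78). C10orf95-AS1 fell from 9.35, 10.4, 8.98 and 8.79 CPM to 2.75, 3.92, 4.51 and 2.65 CPM at 72 h (-1.47 ± 0.15, adjusted p = 6.7e-09), without overlap. LINC00707, an abundant intergenic transcript on chromosome 10, was at 113, 113, 124 and 122 CPM in solvent and had dropped to 67.0, 81.4, 79.3 and 76.1 CPM after 6 h (-0.64 ± 0.10, adjusted p = 2.9e-05), without overlap, and was at 59.7, 61.8, 65.8 and 57.6 CPM at 72 h. DLEU1, a long transcript of the deleted region of B-cell leukemia, went from 30.8 ± 1.66 CPM to 15.4 ± 0.459 CPM at 24 h and 16.4 ± 1.05 CPM at 72 h (-0.91 ± 0.09, adjusted p = 3.8e-09). The most abundant intergenic member, LINC02067, was at 685, 739, 638 and 684 CPM in solvent and at 385, 442, 410.0 and 423 CPM at 72 h (-0.73 ± 0.07, adjusted p = 2.7e-09). All 4 libraries at 72 h were below all 4 in solvent. These decreases were also called with TMM factors, with log2 fold changes of -1.73 for IRX2-DT, -0.91 for VPS9D1-AS1, -1.30 for C10orf95-AS1, -0.79 for LINC00707, -0.75 for DLEU1 and -0.56 for LINC02067.

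**Figure D2:**
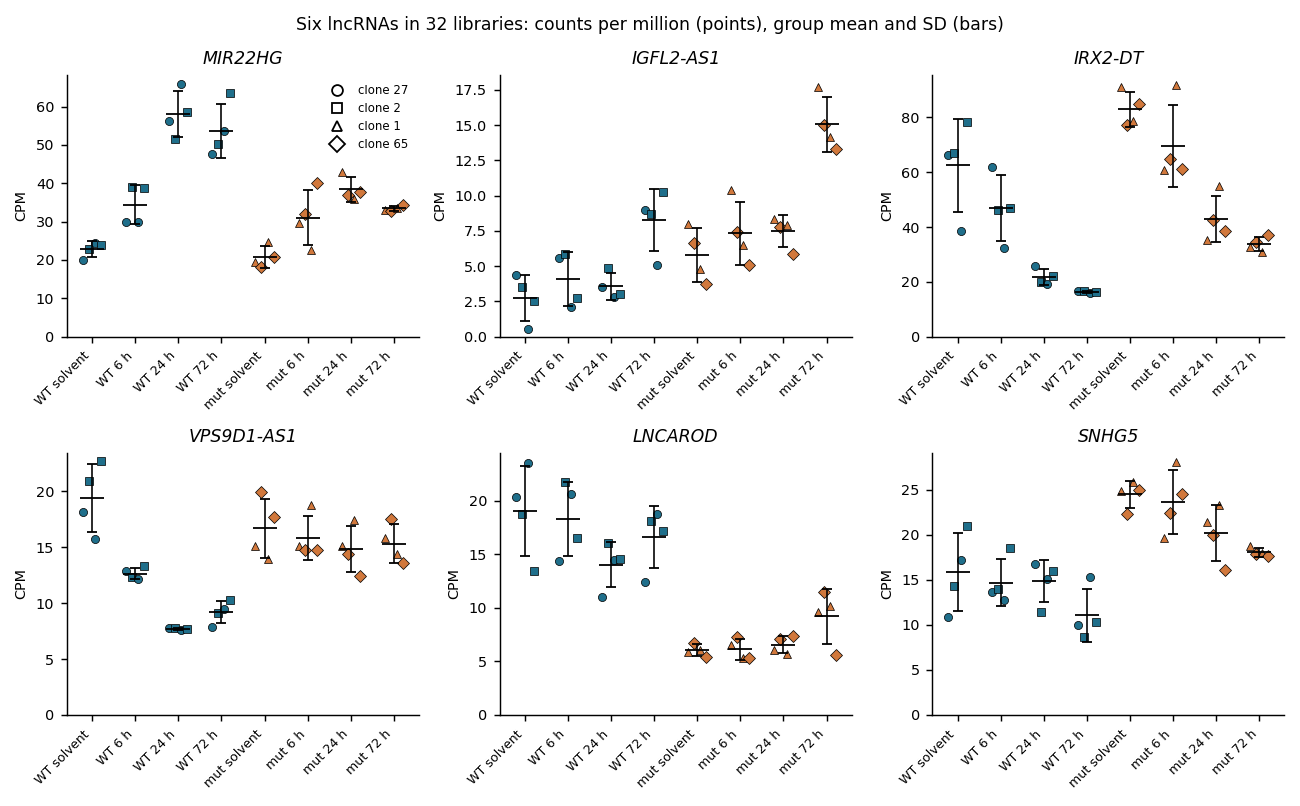
CPM of 6 lncRNAs in each library by group (blue, WT; orange, mut; symbol, clone), with the group mean (line) and SD (bars, n = 4). MIR22HG and IGFL2-AS1 rose in both genotypes, IRX2-DT fell in both, VPS9D1-AS1 was called lower in WT and not in mut cells, LNCAROD was lower and SNHG5 higher in mut solvent.

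Hosts of snoRNAs were the largest group on the lists, with 17 members out of 38 listed genes, of which 24 have a row in the table. The annotation places at least 1 snoRNA gene in 16 of these members. In WT cells all 17 had a negative log2 fold change at every time with library-size scaling (with TMM factors 15 did at 6 h and 16 after 24 h), and none was called higher. Lower calls numbered 3 at 6 h, 12 at 24 h and 16 after 72 h, where 11.9%, 38.0% and 38.4% of all genes were called lower. SNHG11 was the one not called at 72 h (-0.26 ± 0.18, adjusted p = 0.22). The median log2 fold change was -0.57 at 24 h and -0.71 at 72 h, and values at 72 h ranged from -1.48 to -0.26. With TMM factors, 13 hosts were lower at 72 h (median -0.55, all genes 23.3% lower), and leaving out single libraries gave 13 to 16. The other 117 members had 13 higher and 52 lower calls at 72 h and a median of -0.30. Of 6 further listed hosts that were tested but are less abundant, 3 were lower at 72 h.

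SNHG29 (chr17:16438767-16480249), the most abundant member in CPM, stood at 659.9, 754, 631 and 769 CPM in WT solvent and at 402, 411, 426 and 402 CPM at 72 h (-0.77 ± 0.08, adjusted p = 1.4e-08). Every library at 72 h was below every library in solvent. SNHG19, a host with 1 merged exon of 614 bp close to TRAF7, had 8.58, 14.3, 9.88 and 9.92 CPM in solvent and 3.60, 4.5, 3.26 and 3.84 CPM at 72 h, the largest fall of the hosts (-1.48 ± 0.16, adjusted p = 1.5e-08). SNHG16 followed another course, with 153, 159, 168 and 173 CPM in solvent, 92.6, 104, 90.1 and 104 CPM after 24 h and 102, 125, 116 and 107 CPM after 72 h. It was lowest at 24 h (-0.75 ± 0.08, adjusted p = 1.6e-08) and not further down at 72 h (-0.54 ± 0.08). GAS5, a host whose spliced RNA is degraded on the ribosome, was at 21.1, 24.3, 26.7 and 26.7 CPM in solvent, 18.1, 17.5, 16.1 and 18.2 CPM after 6 h and 17.3, 15.5, 16.8 and 11.0 CPM after 72 h. Its libraries separated from solvent already at 6 h (-0.49 ± 0.11, adjusted p = 0.0022). DANCR, which is described to hold back epidermal differentiation, fell by 0.95 on the log2 scale at 72 h (SE 0.10, adjusted p = 1.4e-08), and SNHG5 was called at 72 h (-0.48 ± 0.18, adjusted p = 0.028), but not with TMM factors (adjusted p = 0.16).

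In mut cells fewer hosts were called. None was higher, 1 was lower at 6 h, 7 at 24 h (median -0.29) and 3 at 72 h (median -0.25), namely SNHG19, SNHG5 and DANCR, beside 4.94%, 17.1% and 16.3% of all genes. With the series as a block 9 hosts were lower at 72 h (all genes 22.9%), and 7 were lower without the mut 72 h library 65-2. At 24 h the count was 3 with TMM factors and 4 without the series 1-2. At 72 h it was 1 without this series and 2 with the replications of a clone summed. SNHG29 was at 831, 813, 829 and 860.4 CPM in mut solvent, in the order 1-1, 65-1, 1-2 and 65-2 kept for all mut values, and at 650.0, 669.9, 667 and 918 CPM at 72 h, where the library 65-2 lay above all solvent libraries (-0.21 ± 0.08, adjusted p = 0.065). SNHG16 was at 144, 131, 151 and 138 CPM in solvent and 136, 138, 137 and 169 CPM at 72 h (0.04 ± 0.08, adjusted p = 0.78), so that the groups overlapped. The difference of the 2 responses was tested directly as an interaction, and at 72 h it was called for 6 hosts, SNHG19 (1.00 ± 0.21, adjusted p = 0.0020), SNHG16 (0.58), DANCR (0.57), SNHG29 (0.56), GAS5 (0.45) and SNHG6 (0.43). Over all genes 9.40% had a called positive difference at 72 h. All 6 differences were positive, that is, the mut change lay above the WT change, and the median over the 17 hosts was 0.47. With TMM factors 4 remained (all genes 4.53%), since GAS5 (adjusted p = 0.13) and SNHG6 (adjusted p = 0.065) missed the threshold. Once the series entered as a block 11 hosts were called (all genes 17.1%), and with the replications of a clone summed 3 were called. After 72 h, 16 hosts were higher in mut than in WT cells (all genes 26.0%), with a median log2 difference of 0.73. With TMM factors 15 were higher (all genes 18.7%). In solvent 4 were higher (all genes 6.38%), and only 1 was called there when the series 27-2 or the series 1-2 was left out.

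**Figure D3:**
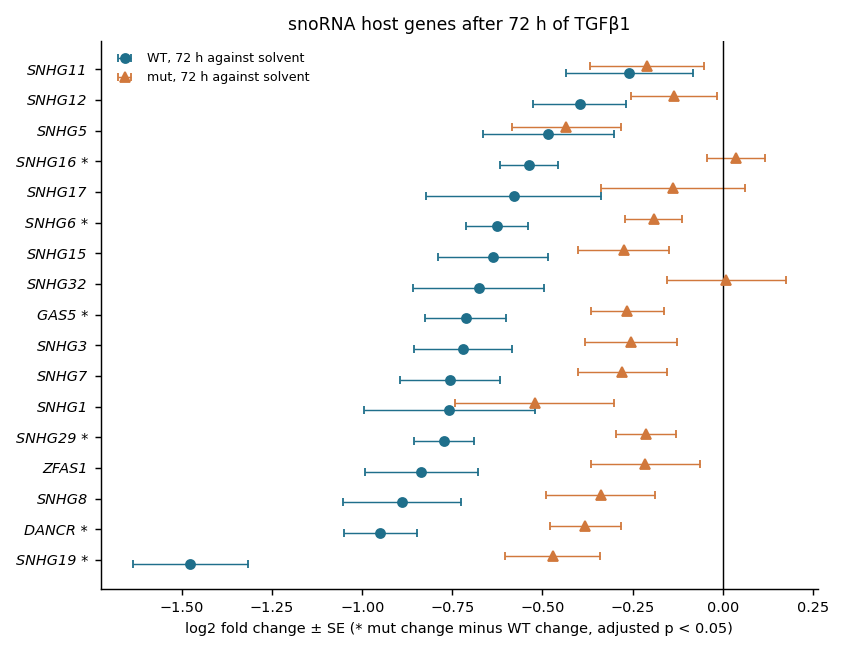
Log2 fold change (± SE) of the 17 snoRNA host lncRNAs after 72 h of TGFβ1 against solvent in WT (circles) and mut (triangles) cells, ordered by the WT change. All WT values are below 0, and asterisks mark the 6 hosts for which the mut change differed from the WT change.

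Among the 8 microRNA hosts, 3 were higher in WT cells at 72 h and none lower, beside 13.9% and 38.4% of all genes, and with the series as a block 2 were lower (all genes 43.6%). Besides MIR22HG these were MIR100HG and MIR4435-2HG. MIR100HG, the host of miR-100, let-7a and miR-125b, was at 21.2, 26.1, 28.6 and 22.5 CPM in WT solvent, 33.3, 47.7, 49.5 and 51.5 CPM at 24 h and 26.9, 43.1, 47.4 and 54.6 CPM at 72 h. At 24 h its groups did not overlap (0.87 ± 0.19, adjusted p = 2.7e-04), whereas at 72 h (0.77 ± 0.19, adjusted p = 0.0011) the library 27-1 lay within the solvent range. In mut cells MIR100HG reached 32.4, 35.1, 39.7 and 45.9 CPM at 72 h from 18.6, 17.6, 25.7 and 23.0 CPM (0.85 ± 0.19, adjusted p = 0.0014). MIR4435-2HG rose by 0.50 ± 0.15 in WT cells at 72 h (adjusted p = 0.0071) and was not called in mut cells (0.28 ± 0.15, adjusted p = 0.17), but the difference of the changes was not called either (-0.22 ± 0.21, adjusted p = 0.55). CYTOR, its near-identical copy, rose in both genotypes at 72 h, by 0.73 ± 0.17 in WT and 0.61 ± 0.17 in mut cells. Because the promoters of both genes are identical over all 241 bases that can be aligned, and their transcripts are similar, reads may have been split between them. MIR205HG, with 325 ± 52.1 CPM in WT solvent and 322 ± 36.2 CPM at 72 h, was not called at any time in either genotype (with TMM factors it was called higher in mut cells at 72 h, at 0.42, adjusted p = 0.022), and MIR31HG and MIR1915HG were not called in WT cells at 72 h.

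The remaining lists held fewer members. Of 10 abundant nuclear and regulatory lncRNAs, 6 were lower in WT cells at 72 h and 3 in mut cells, with none higher, beside 38.4% and 16.3% of all genes. With TMM factors 3 and 1 were lower (all genes 23.3% and 9.91%). FIRRE, which shapes nuclear chromatin, had the largest decrease (-0.97 ± 0.28, adjusted p = 0.0046). NORAD was lower by a log2 fold change of -0.20 ± 0.07 (adjusted p = 0.019), a call that was lost with TMM factors (-0.04, adjusted p = 0.65), and MALAT1 (-0.00 ± 0.25) and NEAT1 (-0.58 ± 0.29) were not called. Of 11 members on the EMT and TGFβ list, MIR100HG, MIR4435-2HG and CYTOR were higher and FOXD2-AS1 (-0.92 ± 0.18) and PVT1 (-0.44 ± 0.11) lower in WT cells at 72 h (all genes 13.9% and 38.4%). With TMM factors 4 were higher and 2 lower (all genes 21.5% and 23.3%). In mut cells 3 members of this list were higher (MIR100HG, CYTOR and LINC00460) and 1 lower (FOXD2-AS1), beside 7.81% and 16.3% of all genes. Of 4 epithelial differentiation lncRNAs, LINC01133 (1.10 ± 0.45, adjusted p = 0.041) was higher and DANCR and LINC01503 (-0.64 ± 0.21, adjusted p = 0.012) lower in WT cells, the last not with TMM factors (adjusted p = 0.061). Of 4 stress and p53 lncRNAs, MIR22HG was higher and GAS5 and NORAD lower in WT cells at 72 h. For both of these lists the shares of all genes are those given for the WT calls of the EMT and TGFβ list. Members may stand on more than 1 list.

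In mut cells fewer members were called. At 72 h, 10 were higher and 25 lower (all genes 7.81% and 16.3%), at 24 h 4 and 19 (6.75% and 17.1%), and at 6 h 3 and 3 (2.06% and 4.94%). TMM factors gave 6 higher and 7 lower at 24 h (9.26% and 8.04%) and 12 and 14 at 72 h (10.7% and 9.91%). Entering the series as a replicate block, which removes differences between the clones, called 15 members at 6 h (all genes 16.5%), 46 at 24 h (35.0%) and 64 at 72 h (33.9%). Both ZC3H12A-DT and MIR22HG were again higher at all times, and LINC00707 was lower at all times. IGFL2-AS1 went from 8.0, 6.63, 4.78 and 3.72 CPM in mut solvent to 17.7, 15, 14.1 and 13.3 CPM at 72 h (1.44 ± 0.29, adjusted p = 4.3e-04), with every treated library above every solvent library. LINC01940, an intergenic transcript near TWIST2, showed 1.57, 2.32, 1.82 and 2.76 CPM in mut solvent, 8.26, 7.04, 6.05 and 9.43 CPM at 24 h and 3.52, 5.63, 6.43 and 10.0 CPM at 72 h. Groups were separate at both times (24 h, 1.87 ± 0.55, adjusted p = 0.014, and 72 h, 1.5 ± 0.56, adjusted p = 0.049), but the call at 72 h was lost when any 1 of the 8 mut libraries compared, except 72 h 1-1, was left out (adjusted p = 0.064 to 0.13). Its WT libraries ranged from 3.31, 6.91, 7.35 and 4.68 CPM in solvent to 1.21, 3.38, 5.04 and 6.74 CPM at 72 h and overlapped (-0.61 ± 0.51, adjusted p = 0.33). The difference of the changes was 2.11 ± 0.76 (adjusted p = 0.065). LINC00460, an intergenic transcript of chromosome 13, rose in mut cells at 24 h (0.36 ± 0.11, adjusted p = 0.019) and 72 h (0.69 ± 0.10, adjusted p = 1.6e-05). IRX2-DT fell from 91.1, 77.2, 78.7 and 84.8 CPM to 32.9, 34.7, 30.8 and 37.0 CPM at 72 h (-1.30 ± 0.17, adjusted p = 2.8e-06). C1RL-AS1 fell at 72 h (-0.86 ± 0.20, adjusted p = 0.0017), and C10orf95-AS1 likewise (-0.88 ± 0.12, adjusted p = 5.7e-06).

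At 72 h, 81 members were called in WT and 35 in mut cells, and 28 were called in both, all in the same direction. Put as a share, these are 34.6% of the WT calls and 80.0% of the mut calls, near the 36.9% and 80.1% over all genes. Of the 81 members called in WT cells, 77 had the same sign in mut cells (90.8% over all genes). The 53 members called in WT only included 8 for which the difference of the changes was called (24.2% of such genes over the whole table), so that for the other 45 a different response was not shown.

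A second question was how the mut clones differ from the WT clones without and with TGFβ1. In solvent, 16 members were higher and 3 lower in mut cells (all genes 6.38% and 6.32%). The numbers were 24 and 4 at 6 h (11.3% and 10.0%), 55 and 8 at 24 h (24.7% and 12.2%), and 60 and 8 at 72 h (26.0% and 13.2%). With TMM factors they were 34 and 8 at 24 h (16.1% and 17.2%) and 47 and 11 at 72 h (18.7% and 17.8%). With library-size scaling, the lower members in solvent and at 6 h included the ELFN2 row, which holds the counts of the coding gene. Those at 24 h included this row and ENSG00000226266, and those at 72 h ENSG00000271858, likewise with counts of coding genes. For all calls with library-size scaling the means of both mut clones lay on the same side of the means of both WT clones, as for at least 98.9% of the called genes of the whole table. Individual libraries did not overlap for 16 of 19 calls in solvent, 20 of 28 at 6 h, 49 of 63 at 24 h and 57 of 68 at 72 h, beside 83.4%, 78.7%, 83.9% and 78.7% of all called genes. With 2 clones per genotype, an effect of the JUNB deletion and a difference between clones cannot be told apart for any single member. The count in solvent depended on single libraries, with 8 higher and 4 lower without mut solvent 1-2, and 6 higher and 3 lower without WT solvent 27-1.

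LNCAROD (chr10:52450874-52755509), a lncRNA described to activate DKK1, was the member with the largest decrease in mut solvent. Its libraries were at 20.4, 18.8, 23.6 and 13.5 CPM in WT solvent and at 5.90, 6.76, 6.06 and 5.45 CPM in mut solvent, so that the groups did not overlap. The log2 difference was -1.64 ± 0.21, adjusted p = 2.7e-06, and the lower level persisted at 6 h (-1.57 ± 0.21), 24 h (-1.08 ± 0.21) and 72 h (-0.87 ± 0.19). One of the 10 member promoters with an AP-1 site is that of LNCAROD. The site (capitals) lies 100 bases before the RefSeq start in the window chr10:52455346-52455392 on the minus strand. This start lies inside the GENCODE gene given above, not at its upper end. Which start the cells used was not tested.
LNCAROD promoter: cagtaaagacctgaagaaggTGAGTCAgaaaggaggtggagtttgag
CYTOR promoter (chr2:87455388-87455444, plus strand): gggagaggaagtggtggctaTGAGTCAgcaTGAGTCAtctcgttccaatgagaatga
LINC00460 promoter (chr13:106376500-106376573, plus strand): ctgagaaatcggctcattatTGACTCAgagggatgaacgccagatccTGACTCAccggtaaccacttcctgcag
CYTOR and LINC00460 are shown because each carries a pair of such sites. TGANTCA, a palindrome searched on both strands in the 250 bases before and 50 bases after each start, was found at 8.47% of the 118 member starts and at 7.71% of all 35116 starts, so that the share among members was near that of all genes. The genes with a site were CPEB1-AS1, CYTOR, EIF3J-DT, FAM225A, LINC00339, LINC00460, LNCAROD, MIR4435-2HG and OLMALINC. The cyclic AMP response element TGACGTCA was found at 2.54% of the member starts and 1.85% of all starts, and the SMAD palindrome GTCTAGAC at none of the member starts and 0.202% of all starts. Binding was not measured here.

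ZC3H12A-DT and SNHG5 were higher in mut solvent. ZC3H12A-DT stood at 5.31, 4.80, 4.56 and 5.05 CPM there, above all 4 WT solvent libraries (0.88 ± 0.20, adjusted p = 0.0036), and SNHG5 stood at 24.8, 22.3, 25.8 and 25 CPM, against 10.9, 14.3, 17.2 and 21.0 CPM in WT solvent (0.68 ± 0.16, adjusted p = 0.0040). Neither group of libraries overlapped the other. LINC01819 was at 25.9, 31.5, 27.2 and 35.5 CPM in mut and 16.7, 18.1, 21.0 and 13.3 CPM in WT solvent (0.81 ± 0.16, adjusted p = 9.1e-04), and at 72 h the genotypes were not told apart (0.21 ± 0.14, adjusted p = 0.26). LINC00707 was lower in mut solvent, with 84.4, 82.0, 90.0 and 83.3 CPM (-0.48 ± 0.10, adjusted p = 9.2e-04), and at 72 h it was not called (0.16 ± 0.10, adjusted p = 0.21). IGFL2-AS1 (1.30 ± 0.43, adjusted p = 0.045), MINCR (0.60 ± 0.16) and LINC00339 (0.57 ± 0.15) were also higher, the first with overlapping libraries. For MINCR this is a description, since mut solvent is the group that brought it over the threshold. DHRS4-AS1, antisense to a retinal reductase gene, was higher in mut cells in solvent (0.52 ± 0.10, adjusted p = 9.2e-04) and at 72 h (1.09 ± 0.12, adjusted p = 3.2e-08). After 72 h the largest positive differences among called members with separate libraries were those of SNHG32 (1.12 ± 0.18, adjusted p = 1.3e-05), DHRS4-AS1 and HHLA3 (1.08 ± 0.16). SNHG32 was at 39.2, 36, 41.2 and 37.0 CPM in WT and 61.7, 67.1, 85.4 and 138 CPM in mut cells, with the library 65-2 highest. MIR22HG was one of the few members lower in mut cells at 72 h (-0.67 ± 0.12, adjusted p = 5.8e-05), where its mut libraries were at 33.0, 32.9, 33.4 and 34.4 CPM, below all WT libraries at that time. The difference of its changes missed the threshold (-0.53 ± 0.19, adjusted p = 0.059). Under TMM factors, and in the replicate-block fit, this negative difference was called, so that its call depended on the fit.

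The third question was whether TGFβ1 acted differently in the genotypes, which was tested by subtracting the WT change from the mut change. At 6 h no member was called by limma-voom, edgeR or DESeq2 (all genes 0.0740%), and 2 had an unadjusted p under 0.05. At 24 h, 11 members had a positive and 1 a negative difference (all genes 7.72% and 1.93%), and at 72 h 14 had a positive and none a negative one (9.40% and 2.92%). The fit with the replicate block called 24 members at 24 h (all genes 18.7%) and 40 at 72 h (23.5%), and with TMM factors 5 positive and 1 negative difference were called at 24 h (2.96% and 2.80%) and 9 and 3 at 72 h (4.53% and 4.15%). The share over all members was thus close to that of all genes. At 72 h, 9 of the 14 called members share exon sequence with a coding gene, where reads cannot be assigned to either. Among members without exon overlap the share was lower and is given below. Of the 14 members called at 72 h, 11 had the same sign in both genotypes and a smaller change in mut cells. The same count over all genes is not given, so that this only describes the members. SNHG16 and CHROMR, a primate-specific regulator of cholesterol export and the one call of the 14 not named by the rule, had opposite signs, and LINC00460 had the larger increase in mut cells. All 14 differences were called with the block, and CHROMR, SNHG6, GAS5, LINC00460 and C10orf95-AS1 were not called with TMM factors.

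Among called members VPS9D1-AS1 had the largest difference at 24 h. Its mut libraries were at 15.2, 19.9, 13.9 and 17.7 CPM in solvent, 15.1, 14.4, 17.4 and 12.4 CPM after 24 h and 15.9, 17.5, 14.4 and 13.6 CPM after 72 h, and these ranges overlap, in contrast to the WT libraries given above. The differences were 1.15 ± 0.18, adjusted p = 2.5e-04, at 24 h and 0.95 ± 0.17, adjusted p = 6.9e-04, at 72 h, and with TMM factors the adjusted p was 5.2e-04 and 0.0016. DLEU1 was at 30.9, 26.3, 30.3 and 29.0 CPM in mut solvent and 26.1, 27.4, 25.9 and 28.8 CPM at 72 h, where it was not called (-0.11 ± 0.08, adjusted p = 0.37), and the difference from the WT change was 0.80 ± 0.12 (adjusted p = 1.2e-04). LINC02067 was at 679, 682, 593 and 655 CPM in mut solvent and 587, 629, 551 and 727 CPM at 72 h. These libraries overlapped (-0.07 ± 0.07, adjusted p = 0.52), and the difference of the changes was 0.66 ± 0.10 (adjusted p = 1.3e-04). LINC00707 was lower in mut than in WT solvent and not called between the genotypes at 72 h, and its difference of the changes was 0.64 ± 0.14 (adjusted p = 0.0028). C10orf95-AS1 differed at 24 h (0.73 ± 0.19, adjusted p = 0.015) and at 72 h (0.59 ± 0.20, adjusted p = 0.044), although it fell in both genotypes, and RNASEH1-DT, the divergent partner of the gene for ribonuclease H1, differed at 24 h (0.65 ± 0.20, adjusted p = 0.037). LIPE-AS1, antisense to the gene for hormone-sensitive lipase, was the one member called with a negative difference at 24 h (-0.51 ± 0.15, adjusted p = 0.029). For IRX2-DT the fall was numerically larger in WT cells, but the difference of 0.59 ± 0.27 at 72 h was not called (adjusted p = 0.15).

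**Figure D4:**
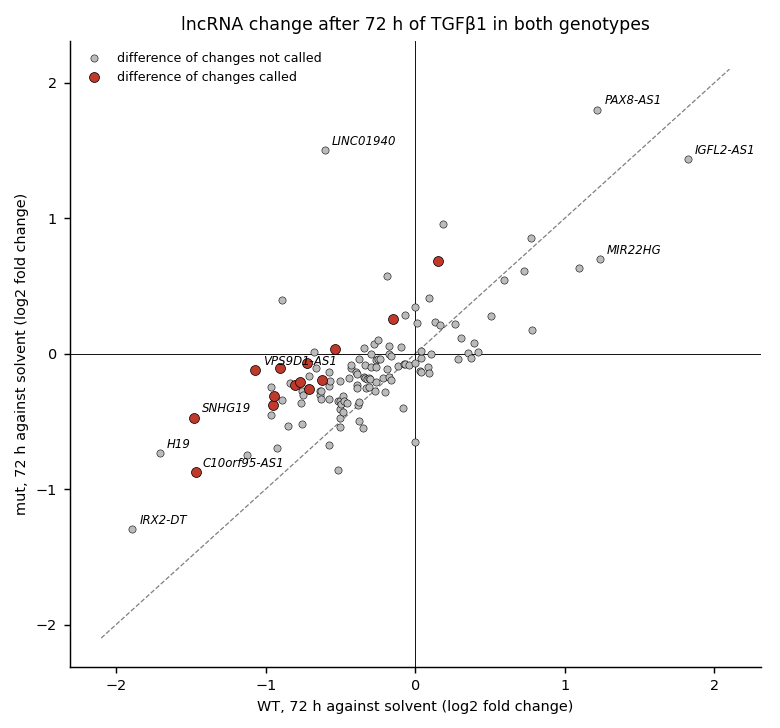
Log2 fold change after 72 h of TGFβ1 in mut cells (vertical axis) against WT cells (horizontal axis) for 133 members, with the line of equal change (dashed). Red points mark the 14 members for which the difference of the changes was called, 11 of which had negative values in both genotypes, nearer to 0 in mut cells. The same count over all genes is not given.

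Members were also set beside their nearest coding gene. For 123 members this gene was tested, and 92 pairs had the same sign in WT cells at 72 h (Pearson r = 0.354, Spearman rho = 0.398 across gene pairs, which share libraries and in part reads and are not replicates). Among the 15 divergent pairs 12 had the same sign (r = 0.547). In this comparison the medians of the 123 members (-0.35) and of their nearest coding genes (-0.17) were both negative. Unrelated pairs would therefore also often share a sign, and the share among unrelated pairs was not counted. Between the genotypes in solvent, 64 of the 123 pairs and 4 of the 15 divergent pairs had the same sign. IRX2 fell with IRX2-DT at 72 h, by -1.06 ± 0.13 in WT (adjusted p = 8.4e-08) and -0.68 ± 0.12 in mut cells (adjusted p = 1.6e-04). ZC3H12A was higher in mut solvent like ZC3H12A-DT (0.75 ± 0.10, adjusted p = 3.0e-06), but in mut cells at 72 h it did not rise (-0.09 ± 0.09) whereas ZC3H12A-DT did. DKK1, which encodes a Wnt antagonist and lies 132832 bp from LNCAROD, was lower in mut solvent as well (-2.09 ± 0.35, adjusted p = 1.3e-04), with 98.1 ± 45.7 CPM in WT and 22.4 ± 6.76 CPM in mut cells. In mut cells at 72 h DKK1 rose (1.46 ± 0.36, adjusted p = 0.0033), where LNCAROD was not called (0.57 ± 0.23, adjusted p = 0.065). TWIST2, a mesenchymal transcription factor gene 8768 bp from LINC01940, rose in mut cells at 72 h (0.64 ± 0.12, adjusted p = 2.1e-04). Its level and its WT change are not given here. The study describes TWIST1, TWIST2 and ZEB2 as not expressed or unresponsive to TGFβ1 in its MCF10A cells. WDR81, which overlaps MIR22HG head to head, moved little in WT cells (-0.18 ± 0.07, adjusted p = 0.047), in the direction opposite to MIR22HG. LIPE fell in WT cells at 72 h (-0.62 ± 0.15, adjusted p = 0.0013) while LIPE-AS1, which shares exon sequence with it, rose (0.38 ± 0.10, adjusted p = 0.0034).

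Clones and replications of 1 genotype differed for a few members. In solvent the means of the 2 WT clones differed over 2-fold for 2 of 133 members, LINC01356 and H19, and those of the 2 mut clones for 2, H19 and PAX8-AS1, the last chosen after its values were seen. Median ratios were 1.12 and 1.08. H19, an imprinted transcript and host of miR-675, differed most. Clone 65, at 4.34 times the mean of the other mut clone, had 66.4 CPM in solvent on average, beside 15.3 CPM in clone 1, 17.7 CPM in clone 2 and 7.37 CPM in clone 27. H19 was at 7.82, 21.6, 6.92 and 13.8 CPM in WT solvent and 2.83, 4.24, 4.23 and 2.74 CPM at 72 h, and the groups did not overlap, but the fitted change of -1.71 ± 1.07 was not called (adjusted p = 0.19). Mut solvent libraries were at 18.3, 77.7, 12.2 and 55.1 CPM, with both libraries of clone 65 high, and the genotypes were not told apart (1.49 ± 0.70, adjusted p = 0.17). LINC01356 (chr1:112820170-112850643), an intergenic transcript on chromosome 1 chosen for description after its values were seen, was almost without counts in 1 series. The 4 libraries of 27-2 held 0 to 4 counts, whereas the other 28 libraries held 3.65 to 10.4 CPM. The coding genes ZNF287, ZNF518B, HOXA11 and LRRC61 showed the same pattern, with at most 2 counts in each library of 27-2 and at least 1.25 CPM elsewhere, and no other series had such a row. Thus the series 27-2 differed from 27-1, although both carry the label of clone 27.

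**Figure D5:**
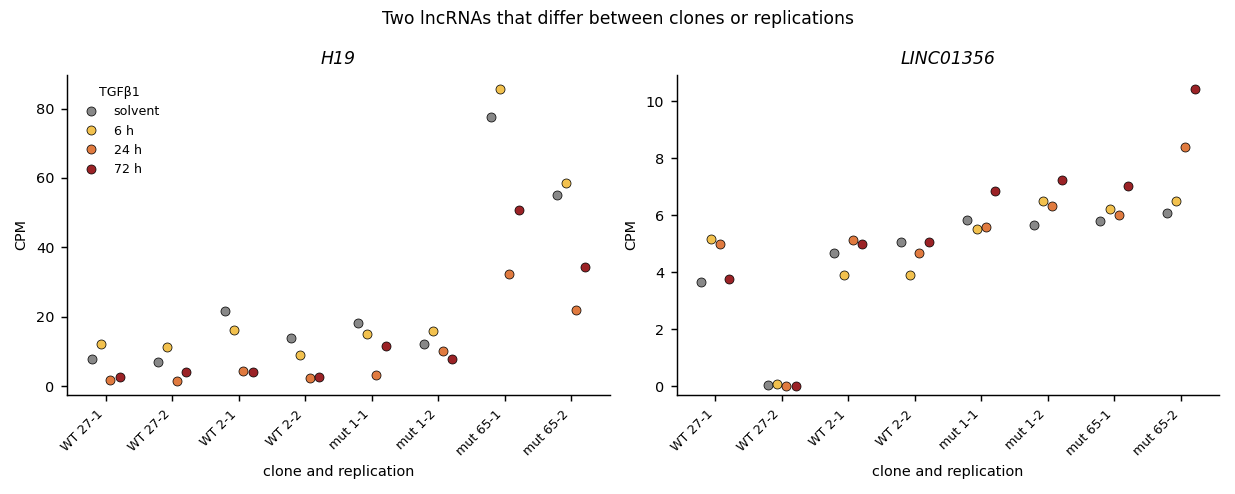
CPM of H19 and LINC01356 in each series, with 1 point per library coloured by treatment. H19 was highest in both series of clone 65, and LINC01356 was at or near 0 in the 4 libraries of the series 27-2 and at least at 3.65 CPM in all others.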

How the data were processed

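Poly-A RNA of 32 libraries (TruSeq RNA Sample Prep Kit v2, which keeps no strand) was sequenced by the authors, trimmed with Trimmomatic and aligned and counted per gene with STAR on GRCh38. The deposited values are raw counts. The strand setting, annotation release and STAR version were not given in the sources used here. Gene types and positions came from GENCODE 44, which matched 17763 of 17788 rows. From the counts, CPM was computed per library total. Tests used limma-voom (limma 3.58.1, R 4.3.3) on all 32 libraries with 1 coefficient per group and library-size scaling, after edgeR's filterByExpr (edgeR 4.0.16, minimum count 10, minimum total 15), with Benjamini-Hochberg adjustment over 14865 genes, a threshold of 0.05 and two-sided p. Fold changes are on voom's log2 scale (prior count 0.5). The fit was tested on simulated data, drawn independently for each library. This cannot show how the calls behave where libraries of a series correlate. Alternatives were TMM factors, edgeR's quasi-likelihood test, DESeq2 1.42.0, other filters and thresholds, the series as a replicate block, summed replications and left-out libraries or series. Libraries of a series come from the same clone and replication, and their deviations from the group means correlated (mean 0.303 over 8 series, lowest series mean 0.122, lowest single value 0.028). For the same clone in the other replication the mean was 0.018. It was 0.167 for clone 2, 0.122 for clone 1, 0.087 for clone 65 and -0.302 for clone 27, so that replications of a clone were not all independent. No 2 libraries were alike within sampling noise. Replicates are cultures of 2 clones per genotype, so that p-values measure the spread between these libraries. Genes were named by level per length, by the largest called changes without overlap between groups, and by fixed lists. Members and lists were chosen with earlier results of these data known.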

Additional observations from a re-analysis of the deposited data

Results flagged for a closer look

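Single libraries stood apart from the other 3 of their group in 10 of 184 groups tested over 23 members, and chance gives about 1 in 20. SNHG29 was at 588 CPM in the WT 6 h library 27-2 and at 918 CPM in the mut 72 h library 65-2, where SNHG16 also stood apart at 169 CPM and LINC01356 at 10.4 CPM. LINC01356 was at 0 CPM in the WT 24 h library 27-2. NEAT1 was at 256 CPM in the WT solvent library 2-1 and at 136 CPM in the mut 72 h library 65-1. IRX2-DT was at 91.9 CPM and VPS9D1-AS1 at 18.7 CPM in the mut 6 h library 1-2, and ZC3H12A-DT was at 2.97 CPM in the WT solvent library 2-1.

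The change with TGFβ1 differed between the genotypes by the limma-voom interaction test (mut change minus WT change, log2) for 12 members at 24 h and 14 at 72 h. Only those named in the text are listed here. At 24 h the differences were -0.51 for LIPE-AS1, 0.35 for LINC02067, 0.46 for SNHG16, 0.64 for DLEU1, 0.65 for LINC00707, 0.65 for RNASEH1-DT, 0.73 for C10orf95-AS1 and 1.15 for VPS9D1-AS1. At 72 h they were 0.43 for SNHG6, 0.45 for GAS5, 0.53 for LINC00460, 0.56 for SNHG29, 0.57 for DANCR, 0.57 for DHRS4-AS1, 0.58 for SNHG16, 0.59 for C10orf95-AS1, 0.64 for LINC00707, 0.66 for LINC02067, 0.80 for DLEU1, 0.95 for VPS9D1-AS1 and 1.00 for SNHG19. With TMM factors LINC02067 and RNASEH1-DT at 24 h and SNHG6, GAS5, LINC00460 and C10orf95-AS1 at 72 h missed the threshold.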

How the results depend on the processing

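The percent of members called moved by over 1.5 times under some alternatives, and the cause was not tested. With the series as a replicate block it was 23.1% in place of 9.70% in WT cells at 6 h (20.9% with TMM factors added), 11.2% in place of 4.48% in mut cells at 6 h (11.2%), 34.3% in place of 17.2% at 24 h (32.1%) and 47.8% in place of 26.1% at 72 h, and for the interaction 17.9% in place of 8.96% at 24 h and 29.9% in place of 10.4% at 72 h (20.9%). With TMM factors it was 9.70% in mut cells at 24 h and 4.48% for the interaction at 24 h. The edgeR test gave 2.24%, 8.21% and 16.4% in mut cells at 6, 24 and 72 h and 4.48% for the interaction at 24 h. With the replications of a clone summed the values were 0%, 9.70% and 17.2% in mut cells at 6, 24 and 72 h, and 1.49% and 4.48% for the interaction at 24 and 72 h. Without the series 1-2 they were 9.70% in mut cells and 4.48% for the interaction at 24 h, and without the series 27-2 8.96% in place of 14.2% between the genotypes in solvent. Over the 68 members without exon overlap the interaction at 72 h was called for 5.88%, beside 12.3% of all genes.

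Leaving out single libraries gave 0% to 8.96% in mut cells at 6 h (0% without 6 h 65-1 or 65-2, 8.96% without 6 h 1-2) and 9.70% to 20.1% at 24 h (9.70% without 24 h 1-1). Between the genotypes it gave 6.72% (without WT 27-1) to 17.2% in solvent and 11.9% (without mut 65-2) to 20.9% at 6 h, and for the interaction 4.48% (without mut 24 h 1-2) to 8.21% at 24 h. The other 258 alternatives of these percentages stayed within 1.5 times. Of 69 changes of named members, 56 kept their call under every alternative and none was reversed. Calls were lost under some alternative for LINC01940 in mut cells at 72 h and RNASEH1-DT for the interaction at 24 h, among 13 in all. Depth limits mainly members near 0 in a library, where 3 counts are 0.0549 to 0.0756 CPM.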

Other observations

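By position, 9 of the 15 divergent members were lower and 3 higher in WT cells at 72 h (median log2 fold change -0.43), and 12 were higher in mut than in WT cells at that time, where 38.4%, 13.9% and 26.0% of all genes were called. Of the 55 intergenic members 22 were lower and 6 higher (median -0.34), a share of lower calls near that of all genes, and of the 56 members sharing exon sequence with a coding gene 32 were lower and 4 higher (median -0.33).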
